A study of Mus musculus with 6 samples.

Results

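Intermediate filaments are the cytoskeletal system that shares no subunit with actin or microtubules, and the nuclear lamina is its counterpart under the nuclear envelope. The genes described here are 10 members of this family, Krt8, Krt18, Krt7, Krt19, Des, Vim, Nes, Synm, Lmna and Lmnb1, taken by name from a count table of 23337 genes, and all 10 were in the table. They were named by gene family, but selected on earlier results of these data, namely the log2 fold changes and levels of the SRF-OE against GFP contrast. Their values in that contrast are therefore descriptions, and the adjusted p-values printed for them are entries of a fit across all genes on which nothing else was rested.

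Keratins assemble as obligate pairs of a type I chain, such as keratin 18, and a type II chain, such as keratin 8, and this pair is typical of simple epithelia and of the early embryonic heart. Adult cardiomyocytes (CMs) build their filaments from desmin, which links Z-discs to the membrane, the nucleus and the intercalated disc, with synemin as a partner that cannot assemble alone. Vimentin is the filament of mesenchymal and endothelial cells, nestin that of progenitor and developing muscle cells, and lamins A/C and B1 line the nucleus of most cells.

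The study asked how raised serum response factor (SRF), a transcription factor that binds CArG boxes, affects maturing CMs. Wildtype mice of mixed background received AAV9-cTNT-SRF-2A-GFP (SRF-OE) or AAV9-cTNT-GFP (GFP) at P1 (postnatal day 1), at 5e8 viral genomes per gram, a dose that transduces a mosaic of CMs. Both vectors carry GFP under the cTNT promoter, which is active in CMs, and in both groups GFP+ CMs were sorted after collagenase perfusion at P14 for RNA-seq. The labels list 3 biological replicates in each group and say nothing of pooled hearts.

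Only 5 libraries could be used, because the column headed OE1 held gene lengths. The usable libraries were OE2 and OE3 in the SRF-OE group and GFP1, GFP2 and GFP3 in the control group, numbered by replicate, with totals between 14137433 and 23159631 counts. The library labelled GFP1 went against its label at the target gene: Srf stood at 359.9 and 748 CPM (each gene's count per 1e6 counts, scaled with TMM factors) in OE2 and OE3, at 338 CPM in the library labelled GFP1, and at 67.3 and 85.1 CPM in GFP2 and GFP3. Its log2 fold change was 1.76 (SE 0.71, edgeR adjusted p = 0.36) in all 5 libraries and 2.87 (edgeR adjusted p = 0.044) without the library labelled GFP1. Srf counts can include transcripts of the vector. Since the first column, headed as a chromosome, held gene symbols and the next, headed OE1, held lengths, the names may stand 1 column too early, and the library labelled GFP1 would then be an SRF-OE library. Whether that is so cannot be told apart here from a control with raised Srf, so no library was moved, and fits are given for the 5 libraries as labelled and for the 4 without the library labelled GFP1.

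Stretches upstream of Krt8, Krt18 and Synm, which carried the widest differences between libraries, are shown so that the genes can be located and their flanks compared. They are RefSeq sequence of GRCm38.p6 on the strand of each gene, and end at the base before the annotated gene. Krt8 lies at chr15:101996698-102004482 on the minus strand and its stretch covers chr15:102004483-102004592. Krt18 lies at chr15:102028180-102032027 on the plus strand and its stretch covers chr15:102027966-102028179. Synm lies at chr7:67730160-67759742 on the minus strand and its stretch covers chr7:67759743-67759992. Capitals in the Synm stretch mark the match to a CArG box with 1 mismatch, at bases -239 to -230 from the RefSeq start, and the other stretches hold no capitals.
Krt8: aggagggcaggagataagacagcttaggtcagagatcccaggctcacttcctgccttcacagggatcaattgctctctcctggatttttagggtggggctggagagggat
Krt18: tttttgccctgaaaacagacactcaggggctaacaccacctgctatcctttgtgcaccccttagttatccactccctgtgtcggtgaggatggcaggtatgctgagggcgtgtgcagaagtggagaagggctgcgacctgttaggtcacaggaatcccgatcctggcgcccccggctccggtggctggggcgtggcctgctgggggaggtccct
Synm: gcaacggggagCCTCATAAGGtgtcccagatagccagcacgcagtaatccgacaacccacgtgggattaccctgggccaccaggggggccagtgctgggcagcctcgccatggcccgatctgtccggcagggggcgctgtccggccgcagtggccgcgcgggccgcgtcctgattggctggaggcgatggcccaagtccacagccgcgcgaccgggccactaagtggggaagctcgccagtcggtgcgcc

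Krt8 and Krt18 point away from each other with 23.7 kb between them. Windows from 250 bases before to 50 after each start were given for 8 of the 10 genes, and no window was given for Krt19 or Lmnb1. A CArG box with no mismatch, searched on both strands, was in the windows of 0 of the 8 genes, against 1.63% of 32851 windows of all genes. With at most 1 mismatch it was found for 3 genes, Lmna, Nes and Synm, against 21.1% of all windows. The TATA box letters TATAAA were found for Krt8 and Vim (13.6% of all windows). For Vim they lay at bases -32 to -27 from the RefSeq start. For Krt8 they lay at -3 to 2 and -1 to 4, over the start itself, which the printed stretch does not reach. The GC box letters GGGCGG were found for Des, Krt7, Lmna and Nes (35.7%). The MCAT letters CATTCC, which TEAD factors bind, were found for 0 of the 8 genes (14.7% of all windows). These counts describe letters in a short window and nothing further.

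The simple epithelial keratins Krt8 and Krt18 and the desmin partner Synm were scarce in GFP2 and GFP3 and plentiful in OE2, OE3 and the library labelled GFP1. Vim and Nes were moderately higher in SRF-OE than in GFP2 and GFP3. Des, Lmna and Lmnb1 showed little or no separation of the groups.

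Krt18, the type I partner of the pair, stood at 79.2 CPM in OE2 and 394 CPM in OE3, at 153 CPM in the library labelled GFP1, and at 3.44 and 3.24 CPM in GFP2 and GFP3. The library labelled GFP1 lay between the SRF-OE libraries, so the groups overlapped as labelled and did not overlap without it. Its log2 fold change was 2.15 (SE 1.58) in 5 libraries, with an adjusted p of 0.53 in edgeR's quasi-likelihood test with Benjamini-Hochberg adjustment. In 4 libraries it was 6.15 (SE 0.86), a 70.9-fold difference with an adjusted p of 0.0473 in the same test. That was rank 16 by log2 fold change among the 13397 genes tested.

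Krt8, the type II partner, stood at 11.1 CPM in OE2 and 51.8 CPM in OE3, at 29.1 CPM in the library labelled GFP1, and at 1.65 and 1.03 CPM in GFP2 and GFP3. These controls rested on 36 and 13 reads, whereas OE3 held 1184. The order of the libraries was that of Krt18, with the library labelled GFP1 again between OE2 and OE3. The log2 fold change was 1.55 (SE 1.31, edgeR adjusted p = 0.59) in 5 libraries and 4.51 (SE 0.81, edgeR adjusted p = 0.0502) in 4, a 22.8-fold difference just outside the cutoff of 0.05.

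Within the pair the levels were unequal and the imbalance differed between libraries. Per length, Krt18 exceeded Krt8 9.20-fold in OE2, 9.82-fold in OE3 and 6.75-fold in the library labelled GFP1. In GFP2 and GFP3 the ratio was 2.69 and 4.07. The type I chain thus differed more between these libraries than the type II chain, although the control ratios rested on few Krt8 reads. OE3 exceeded OE2 4.98-fold for Krt18 and 4.66-fold for Krt8, while Srf itself was 2.08-fold higher in OE3 than in OE2.

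The genes next to the pair had values near 0 or very few reads. Of 8 genes in the table within 100 kb of the pair, which include Krt8 and Krt18 themselves, 5 passed the filter on low counts in the 5 libraries. Those other than the pair, Eif4b, Tns2 and Spryd3, had log2 fold changes of -0.07, -0.34 and -0.14 in 4 libraries, with edgeR adjusted p-values of 0.76, 0.38 and 0.60. The neighbouring keratin genes Krt4, Krt78 and Krt79 had at most 10 reads in any library. This window was chosen after the values were seen.

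**Figure D1:**
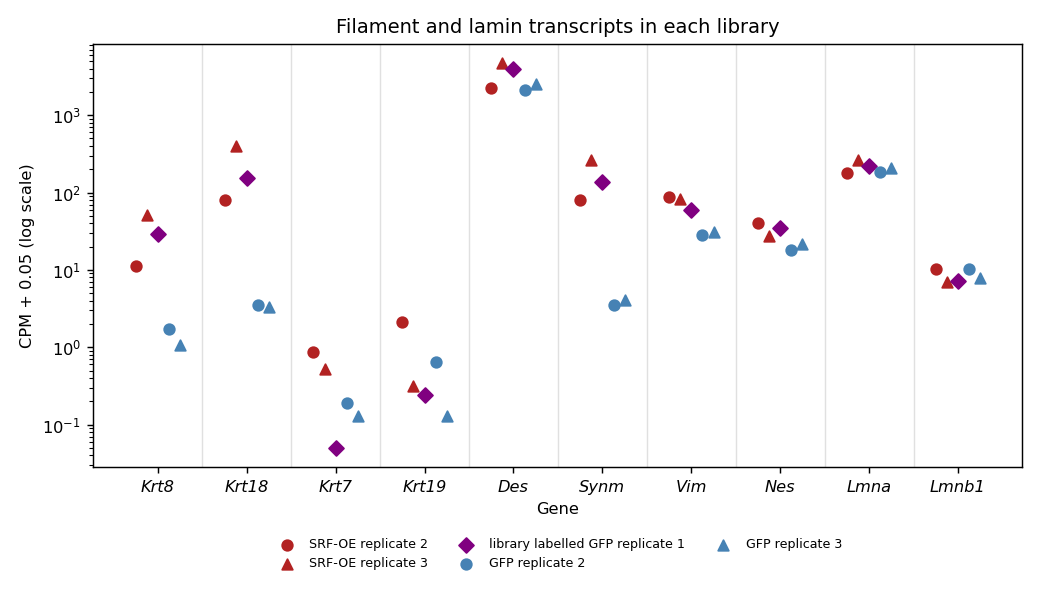
Level of each gene (x axis) in each library, as CPM plus 0.05 on a log scale (y axis), with red for SRF-OE, purple for the library labelled GFP1 and blue for GFP2 and GFP3. Krt8, Krt18 and Synm show the blue points far below the rest, for Krt18 at 3.44 and 3.24 CPM against 79.2 to 394 CPM, and Lmna and Lmnb1 show all points close together.

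Krt7 and Krt19, which mark ductal, glandular and mesothelial epithelia, were near the limit of detection. Krt7 had 14 and 11 reads in OE2 and OE3, 0 in the library labelled GFP1, and 3 and 1 in GFP2 and GFP3. The groups did not overlap, but the gene passed the filter only through the SRF-OE libraries and had to differ. Its log2 fold change in 5 libraries was 3.04 (SE 0.92, edgeR adjusted p = 0.35), and in 4 libraries it did not pass the filter.

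Krt19 had 36 reads in OE2, 6 in OE3, 4 in the library labelled GFP1, and 13 and 1 in GFP2 and GFP3. OE2 was high and the groups overlapped in both sets of libraries. The log2 fold change was 1.87 (SE 1.03, edgeR adjusted p = 0.42) in 5 libraries and 1.58 (SE 1.15, edgeR adjusted p = 0.40) in 4, and leaving out OE2 turned it to -0.22 and -0.52. Markers of the mesothelium, the cell layer over the heart, were also highest in OE2: the 9 of 10 listed genes in the table summed to 36.1 CPM in OE2 and to between 8.12 and 8.92 CPM in the other libraries. Over those other libraries Krt19 ran from 0.0789 CPM in GFP3 to 0.596 CPM in GFP2, so the likeness rested on OE2. The part of mesothelial RNA in the Krt19, Krt7, Krt8 and Krt18 values was not tested.

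Epithelial markers were also scarce. Of 9 listed genes 7 stayed under 1 CPM in every library, among them Epcam with 0 to 5 reads and Cdh1 with 3 to 5 reads. The list summed to 13.1 and 16.0 CPM in OE2 and OE3, 9.84 CPM in the library labelled GFP1 and 8.30 and 4.26 CPM in GFP2 and GFP3. Most of each sum came from the 2 genes tested, Grhl2 and Cldn7. Grhl2, also named after its values were seen, was at 6.76 and 5.12 CPM in SRF-OE and 6.56 CPM in the library labelled GFP1. In GFP2 and GFP3 it was at 7.80 and 3.47 CPM. Its log2 fold change was -0.01 (SE 0.37) in 5 libraries and 0.06 (SE 0.42) in 4. Of the 2 genes tested, 1 was called higher in the 4 libraries, against 1.98% of all genes. It was Cldn7, a tight junction claudin named here after its values were seen. Cldn7 was at 5.03 and 10.3 CPM in SRF-OE, 2.76 CPM in the library labelled GFP1 and 0.138 and 0.316 CPM in GFP2 and GFP3. Its log2 fold change in the 4 libraries was 5.17 (SE 0.61, edgeR adjusted p = 0.042). In the 5 libraries as labelled Cldn7 gave 2.78 (SE 1.00, edgeR adjusted p = 0.35). From the 4, its log2 fold change was 4.56 without GFP2 and 5.73 without GFP3. Its call was lost in both of these fits, where the within-group spread came from OE2 and OE3 alone, and kept without OE2 or without OE3.

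Des encodes desmin, the main muscle filament protein, and was by far the most abundant of the cytoplasmic filament transcripts. It stood at 2273 CPM in OE2 and 4684 CPM in OE3, at 3957 CPM in the library labelled GFP1, and at 2139 and 2559 CPM in GFP2 and GFP3. OE2 lay between the controls and OE3 well above them, so the groups overlapped. The log2 fold change was 0.27 (SE 0.39, edgeR adjusted p = 0.76) in 5 libraries and 0.57 (SE 0.35, edgeR adjusted p = 0.33) in 4, and leaving out OE3 turned it to -0.35 and -0.05. A gene on the opposite strand, Gm15179, overlaps Des and had 11 to 53 reads, against 32422 to 107139 reads of Des.

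Synm encodes synemin, the large partner of desmin that tethers filaments to costameres. Its level was 80.9 CPM in OE2 and 265 CPM in OE3, 137 CPM in the library labelled GFP1, and 3.49 and 4.03 CPM in GFP2 and GFP3. As for the keratin pair, the library labelled GFP1 lay between the SRF-OE libraries and GFP2 and GFP3 lay far below. The log2 fold change was 1.83 (SE 1.47, edgeR adjusted p = 0.57) in 5 libraries and 5.54 (SE 0.64, edgeR adjusted p = 0.042) in 4, a 46.6-fold difference. Ttc23, which overlaps Synm on the opposite strand, had 161 and 204 reads in SRF-OE and 199 and 162 in GFP2 and GFP3, where Synm differed 46.6-fold.

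Per length, synemin transcripts were few beside desmin transcripts in all libraries, but far fewer in GFP2 and GFP3. The Synm to Des ratio was 0.00972 in OE2, 0.0155 in OE3 and 0.00949 in the library labelled GFP1, against 0.000445 and 0.000430 in GFP2 and GFP3.

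Vim stood at 87.3 and 83.2 CPM in OE2 and OE3, at 59.8 CPM in the library labelled GFP1, and at 28.3 and 31.0 CPM in GFP2 and GFP3. It did not overlap between the groups in either set of libraries, and the SRF-OE libraries were nearly equal. The log2 fold change was 1.10 (SE 0.32) in 5 libraries, with an unadjusted p of 0.012 and an adjusted p of 0.35 in edgeR's quasi-likelihood test. In 4 libraries it was 1.53 (SE 0.13, edgeR adjusted p = 0.042), a 2.89-fold difference that ranked 6 by p among all genes tested.

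Markers of cells that normally hold vimentin also differed between libraries, and in bulk samples fewer cells of a type and less RNA per cell cannot be told apart. The 15 endothelial markers summed to 1268 CPM in OE2, 527 CPM in OE3, 1075 CPM in the library labelled GFP1 and 515 and 503 CPM in GFP2 and GFP3. All 15 had a positive log2 fold change in both sets of libraries. In edgeR's test 0 and 2 of these 15 had an unadjusted p under 0.05 in the 5 and the 4 libraries, against 13.9% and 28.3% of all genes. The 11 fibroblast markers summed to 941, 469, 508, 399 and 339 CPM in the same order, and all 11 had a positive log2 fold change in both sets of libraries. Of these 11, 5 and 10 had an unadjusted p under 0.05 in edgeR's test in the 5 and the 4 libraries, beside the same shares of all genes. At the adjusted cutoff 1 of the 11 was called higher in the 4 libraries, against 1.98% of all genes. It was Ddr2, a collagen receptor (log2 fold change 1.88, SE 0.21, edgeR adjusted p = 0.042), which gave 1.21 (SE 0.46, edgeR adjusted p = 0.36) in the 5. The part of endothelial and of fibroblast RNA in the Vim value was not tested.

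The other marker lists differed between libraries in different ways. The 9 smooth muscle and pericyte markers summed to 667 to 723 CPM in OE2, OE3 and the library labelled GFP1 and to 543 and 568 CPM in GFP2 and GFP3. At the adjusted cutoff 1 of these 9 was called higher in the 4 libraries, against 1.98% of all genes. It was the SRF target Tagln (log2 fold change 2.92, SE 0.46, edgeR adjusted p = 0.0473), which gave 2.30 (SE 0.54, edgeR adjusted p = 0.35) in the 5. In edgeR's test 3 and 6 of these 9 had an unadjusted p under 0.05 in the 5 and the 4 libraries, against 13.9% and 28.3% of all genes. Ddr2 and Tagln were named after their values were seen. The 9 leukocyte markers summed to 39.3 CPM in OE2, 13.9 CPM in OE3, 31.3 CPM in the library labelled GFP1 and 15.5 and 13.3 CPM in GFP2 and GFP3, and the 6 Schwann and neuronal markers to 35.2, 51.6, 38.4, 23.2 and 23.2 CPM in that order. The 9 CM markers dominated every library, with sums of 100589 and 91773 CPM in SRF-OE, 107883 CPM in the library labelled GFP1 and 139035 and 159140.5 CPM in GFP2 and GFP3. All 9 CM markers had a negative log2 fold change in both sets of libraries, and none of these 9 passed the adjusted cutoff in edgeR's test. At an unadjusted p under 0.05 there were 1 and 4 of them in the 5 and the 4 libraries, against 13.9% and 28.3% of all genes. No listed marker was at 0 in all libraries.

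Nes, the filament of muscle precursors and of cells at the neuromuscular junction, was at 40.2 and 27.2 CPM in OE2 and OE3, 34.8 CPM in the library labelled GFP1, and 18.1 and 21.5 CPM in GFP2 and GFP3. The groups overlapped as labelled and separated without the library labelled GFP1. The log2 fold change was 0.44 (SE 0.31, edgeR adjusted p = 0.52) and 0.78 (SE 0.23, edgeR adjusted p = 0.093). Like the endothelial sum, and unlike Krt18 and Synm, Nes was higher in OE2 than in OE3, and the part of endothelial RNA in its value was not tested.

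Lmna and Lmnb1 showed no separation of the groups. Lmna, which encodes the A-type lamins that stiffen the nucleus, was at 177 and 262 CPM in SRF-OE, 218 CPM in the library labelled GFP1 and 182 and 209.7 CPM in GFP2 and GFP3. Lmnb1, a farnesylated lamin found in nearly all nuclei, was at 10.3 and 6.99 CPM in SRF-OE, 7.18 CPM in the library labelled GFP1 and 10.1 and 7.74 CPM in GFP2 and GFP3. The groups overlapped for both genes in both sets of libraries. Log2 fold changes were 0.11 (SE 0.19) and 0.17 (SE 0.21) for Lmna and 0.05 (SE 0.27) and -0.04 (SE 0.28) for Lmnb1 in the 5 and the 4 libraries, with edgeR adjusted p-values between 0.62 and 0.93. The sign of Lmnb1 turned with the scaling, being 0.02 with upper quartile scaling in the 4 libraries. Per length, the Lmna to Lmnb1 ratio ran from 14.6 in OE2 to 31.9 in OE3, with 26.0, 15.5 and 23.2 in the controls, so the SRF-OE libraries spanned the controls.

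**Figure D2:**
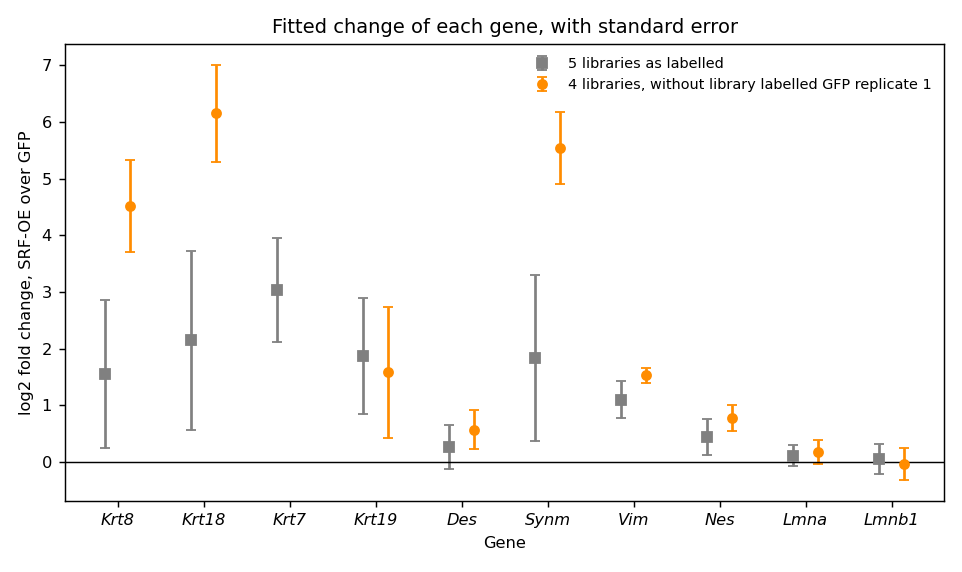
Fitted log2 fold change of SRF-OE over GFP (y axis) for each gene (x axis), with bars of 1 standard error, in the 5 libraries as labelled (grey squares) and in the 4 without the library labelled GFP1 (orange circles). Krt8, Krt18 and Synm move from 1.55, 2.15 and 1.83 to 4.51, 6.15 and 5.54 with smaller errors. Des moves from 0.27 to 0.57, while Lmna and Lmnb1 stay near 0. Krt7 has no orange point because it did not pass the filter there.

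Counted over the genes, 0 of 10 passed the adjusted cutoff of 0.05 in edgeR's test on the 5 libraries, where 0 of 13754 genes tested (0%) did. At an unadjusted p under 0.05 there were 2 of the 10, Krt7 and Vim, against 13.9% of all genes, and the same 2 of 10 were higher in SRF-OE without overlap, against 16.1% of all genes. DESeq2 gave an adjusted p in the 5 libraries to only 2 of the 10, Des and Lmna, and called neither, where 11 of 1167 genes with an adjusted p rose in SRF-OE (0.943%) and 213 fell (18.3%). In the 4 libraries 9 genes were tested and 3 passed as higher, Krt18, Synm and Vim, against 1.98% of 13397 genes, and 0 passed as lower, against 0.970%, with 2.95% of all genes past the cutoff in either direction. At an unadjusted p under 0.05 there were 5 of the 9, against 28.3% of all genes. With DESeq2 in the 4 libraries 5 of them were called higher, the 3 named and Krt8 and Nes, against 6.29% of 13559 genes, and 0 lower, against 6.14%. Of the 9, 5 were higher without overlap (Krt8, Krt18, Vim, Nes and Synm), against 30.8% of all genes. Because the list was named with this contrast known, these shares are set side by side and nothing is read from them. A fit that leaves 1 library in a group takes its within-group spread from the other group alone. The calls of Krt18, Synm and Vim were lost without GFP2 or without GFP3. They were kept without OE2 or without OE3, and nothing is read from either. Without GFP2 and without GFP3 the log2 fold changes were 6.18 and 6.09 for Krt18, 5.41 and 5.62 for Synm and 1.45 and 1.58 for Vim. Without OE3 the log2 fold changes of Krt18 and Synm were 4.56 and 4.44, and without OE2 they were 6.88 and 6.16. An exact permutation test of 2 against 3 libraries cannot give a p below 0.1, so none was run for single genes.

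The library labelled GFP1 can be placed on the scale between the other groups. With the mean of GFP2 and GFP3 on log2(CPM + 1) set to 0 and that of OE2 and OE3 set to 1, it lay at 1.07 for Krt8, 0.96 for Krt18, 0.98 for Synm, 0.78 for Srf and 0.66 for Vim. For these genes it was thus nearer to SRF-OE than to GFP2 and GFP3.

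The make-up of the cytoplasmic filament transcripts differed accordingly. Per length and over 64 genes, Des made up 88.5% in OE2, 84.3% in OE3 and 90.7% in the library labelled GFP1, against 97.3% and 97.6% in GFP2 and GFP3. The transcripts other than desmin summed to 137 CPM per kb in OE2, 406 in OE3, 189 in the library labelled GFP1, and 27.2 and 29.9 in GFP2 and GFP3. Even where they were highest, desmin remained the bulk of the filament RNA.

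Within that remainder the leading gene differed. Krt8 and Krt18 together held 45.7%, 76.4% and 66.3% in OE2, OE3 and the library labelled GFP1, and 12.4% and 9.63% in GFP2 and GFP3. Vim held 56.7% and 56.6% in GFP2 and GFP3 and 34.7%, 11.2% and 17.3% in the other libraries. Synm held 1.63% and 1.71% in GFP2 and GFP3 and between 7.50% and 9.25% in the other libraries. Of all keratin RNA per length over 52 genes, Krt8 and Krt18 held 88.0%, 97.0% and 95.0% in OE2, OE3 and the library labelled GFP1, and 42.4% and 36.4% in GFP2 and GFP3.

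**Figure D3:**
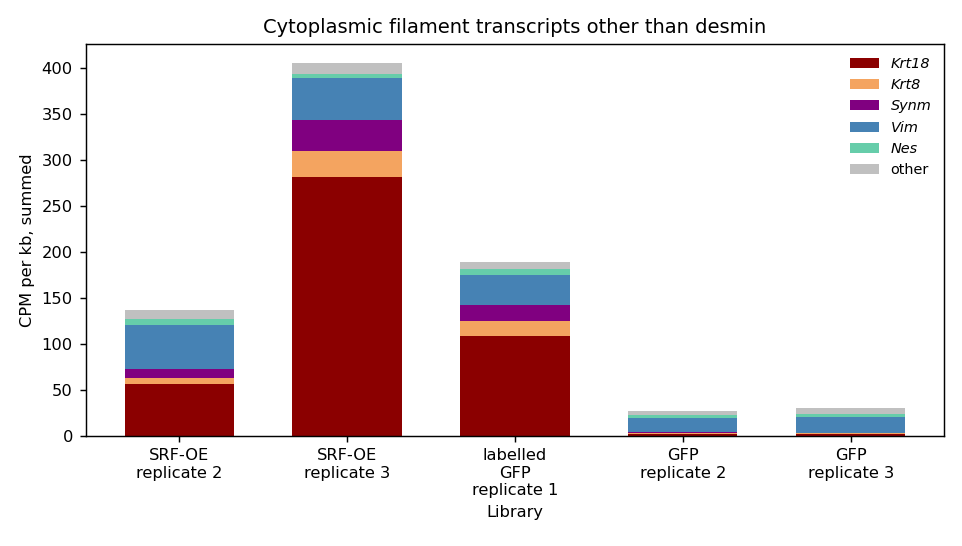
Stacked CPM per kb (y axis, from 0) of the cytoplasmic filament transcripts other than desmin in each library (x axis), split by gene. The bars total 137, 406 and 189 CPM per kb in OE2, OE3 and the library labelled GFP1, mostly keratin and vimentin, and 27.2 and 29.9 in GFP2 and GFP3, mostly vimentin.

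The rest of the filament family was largely silent. Of 67 keratin, type III and IV, lens and lamin genes in the table, 52 stayed under 1 CPM in every library and 5 of these, Krt15, Krt42, Krt5, Krt81 and Krt85, had 0 reads. Outside the 10 described genes, 6 of 57 passed the filter in either set of libraries. In edgeR's test 0 of the 6 passed the adjusted cutoff, against 0% and 2.95% of all genes in the 5 and the 4 libraries. At an unadjusted p under 0.05 there were 1 and 3 of them, against 13.9% and 28.3% of all genes. DESeq2 in the 4 libraries called 1 of them, Krt80, as higher, against 6.29% of all genes. The median log2 fold change of the 6 was 0.95 in the 5 libraries and 1.44 in the 4, beside 0.03 and 0.04 for all genes, and Krt6b among them passed the filter only through libraries in which it was high, so nothing is read from these medians.

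Krt80, a type II keratin of differentiating epithelia, was at 1.97 and 7.56 CPM in SRF-OE, 1.47 CPM in the library labelled GFP1 and 1.06 and 1.03 CPM in GFP2 and GFP3 (log2 fold change 2.0, SE 0.58, edgeR adjusted p = 0.35 in 5 libraries and 2.20, SE 0.68, edgeR adjusted p = 0.10 in 4). Krt6b, a keratin of injured and hyperproliferating epidermis, had 9 reads in OE2, 13 in OE3, 9 in the library labelled GFP1 and 0 in GFP2 and GFP3. Its log2 fold change was 1.76 (SE 1.20, edgeR adjusted p = 0.50) in 5 libraries and 6.37 (SE 1.36, edgeR adjusted p = 0.067) in 4. Against the 3 reads that a count of 0 allows over both GFP2 and GFP3, and with its SRF-OE reads taken as exact, it was at least 6.25-fold higher. That bound leaves out the library labelled GFP1, and nothing is read from it, since the gene passed the filter only through libraries in which it was high. Krt1, which did not pass the filter and was picked out after its values were seen, was at least 7.77-fold higher by the same floor and on the same terms, with 6, 23, 5, 0 and 0 reads in the 5 libraries in order.

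Krt10, a type I keratin of the epidermis, was at 6.10 to 8.70 CPM (log2 fold change 0.02, SE 0.25, edgeR adjusted p = 0.98 in 5 libraries and 0.19, SE 0.24, edgeR adjusted p = 0.62 in 4). Bfsp2, a beaded filament gene of the lens, was at 0.867 and 2.14 CPM in SRF-OE, 0.998 CPM in the library labelled GFP1 and 0.183 and 0.395 CPM in GFP2 and GFP3, on 4 and 5 reads in these last (log2 fold change 1.5, SE 0.75, edgeR adjusted p = 0.40 in 5 libraries and 2.47, SE 0.72, edgeR adjusted p = 0.095 in 4). Its lens partner Bfsp1 overlapped between the groups (log2 fold change 0.39, SE 0.63 in 5 libraries and 0.68, SE 0.71 in 4). Lmnb2, the other B-type lamin, was at 15.9 and 15.1 CPM in SRF-OE, 16.9 CPM in the library labelled GFP1 and 17.5 and 18.8 CPM in GFP2 and GFP3. It was thus slightly lower in SRF-OE without overlap in both sets of libraries. The share of all genes lower without overlap was not computed, so nothing is read from this. Its log2 fold change was -0.19 (SE 0.15, edgeR adjusted p = 0.56) in 5 libraries and -0.22 (SE 0.16, edgeR adjusted p = 0.42) in 4.

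Proteins that anchor or chaperone filaments were examined as a list of 18 genes, which holds plakins, desmosomal proteins, desmin-binding proteins and small heat shock proteins. Of 15 tested, 0 passed the adjusted cutoff in edgeR's test in either set of libraries, against 0% and 2.95% of all genes. In that test 5 and 7 of the 15 had an unadjusted p under 0.05 in the 5 and the 4 libraries, against 13.9% and 28.3% of all genes. DESeq2 in the 4 libraries called 2 of them, Hspb1 higher and Sync lower, against 6.29% of all genes higher and 6.14% lower. There were 8 positive and 7 negative values, and the median log2 fold change was 0.14 in the 4 libraries, beside 0.04 for all genes.

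Hspb1, a small heat shock protein that binds filaments under stress, stood at 376 and 990.3 CPM in SRF-OE, 431 CPM in the library labelled GFP1 and 151 and 173 CPM in GFP2 and GFP3 (log2 fold change 1.44, SE 0.56, edgeR adjusted p = 0.36 in 5 libraries and 2.08, SE 0.44, edgeR adjusted p = 0.059 in 4). Sync, which encodes the desmin-binding syncoilin, was at 15.8 and 17.3 CPM in SRF-OE, 22.2 CPM in the library labelled GFP1 and 23.5 and 31.7 CPM in GFP2 and GFP3 (log2 fold change -0.64, SE 0.20, edgeR adjusted p = 0.35 in 5 libraries and -0.72, SE 0.19, edgeR adjusted p = 0.082 in 4). Mtm1, which encodes the desmin-binding phosphatase myotubularin, gave -0.47 (SE 0.12, edgeR adjusted p = 0.35) and -0.45 (SE 0.13, edgeR adjusted p = 0.093). For Sync and Mtm1 the groups did not overlap in either set of libraries, with SRF-OE lower. For Hspb1 they overlapped as labelled and separated, with SRF-OE higher, only without the library labelled GFP1. In those 4 libraries 30.8% of all genes were higher without overlap. The share lower without overlap was not computed in either set, so nothing is read from the separation of Sync and Mtm1.

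Proteins of the lamina and nuclear envelope were examined as a list of 25 genes, all tested. In the 5 libraries 0 passed the adjusted cutoff in edgeR's test, against 0% of all genes. At an unadjusted p under 0.05 there were 5, against 13.9% of all genes. DESeq2 there called 1, Tmem201, as lower, against 18.3% of genes with an adjusted p. How many of the 25 had an adjusted p there was not counted, and Syne2 had none, so these shares cannot be compared. In the 4 libraries 1 rose and 1 fell in edgeR's test, against 1.98% and 0.970% of all genes, and the median log2 fold change was -0.04. At an unadjusted p under 0.05 there were 10, against 28.3% of all genes. DESeq2 called 3 there, against 6.29% of all genes higher and 6.14% lower. Syne2, which encodes the nesprin that ties the outer nuclear membrane to the cytoskeleton, rose, at 60.6 and 64.6 CPM in SRF-OE, 53.8 CPM in the library labelled GFP1 and 37.2 and 37.5 CPM in GFP2 and GFP3 (log2 fold change 0.75, SE 0.13, edgeR adjusted p = 0.0496, against 0.55, SE 0.19, edgeR adjusted p = 0.35 in 5 libraries).

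Tmem201, an inner nuclear membrane protein that associates with lamins, fell, at 135 and 126 CPM in SRF-OE, 151 CPM in the library labelled GFP1 and 216 and 219 CPM in GFP2 and GFP3 (log2 fold change -0.73, SE 0.11, edgeR adjusted p = 0.0473, against -0.58, SE 0.19, edgeR adjusted p = 0.35 in 5 libraries). Plpp7, a muscle nuclear envelope protein, gave -0.45 (SE 0.17, edgeR adjusted p = 0.36) in 5 libraries and -0.58 (SE 0.13, edgeR adjusted p = 0.063) in 4. The calls of Syne2 and Tmem201 lay close to the cutoff and were lost with upper quartile scaling or a minimum of 10 counts per library. They were also lost without GFP2 or without GFP3, where the within-group spread came from OE2 and OE3 alone. Without OE2 or without OE3 they were kept. The log2 fold changes without GFP2 and without GFP3 were 0.73 and 0.74 for Syne2 and -0.76 and -0.73 for Tmem201.

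**Figure D4:**
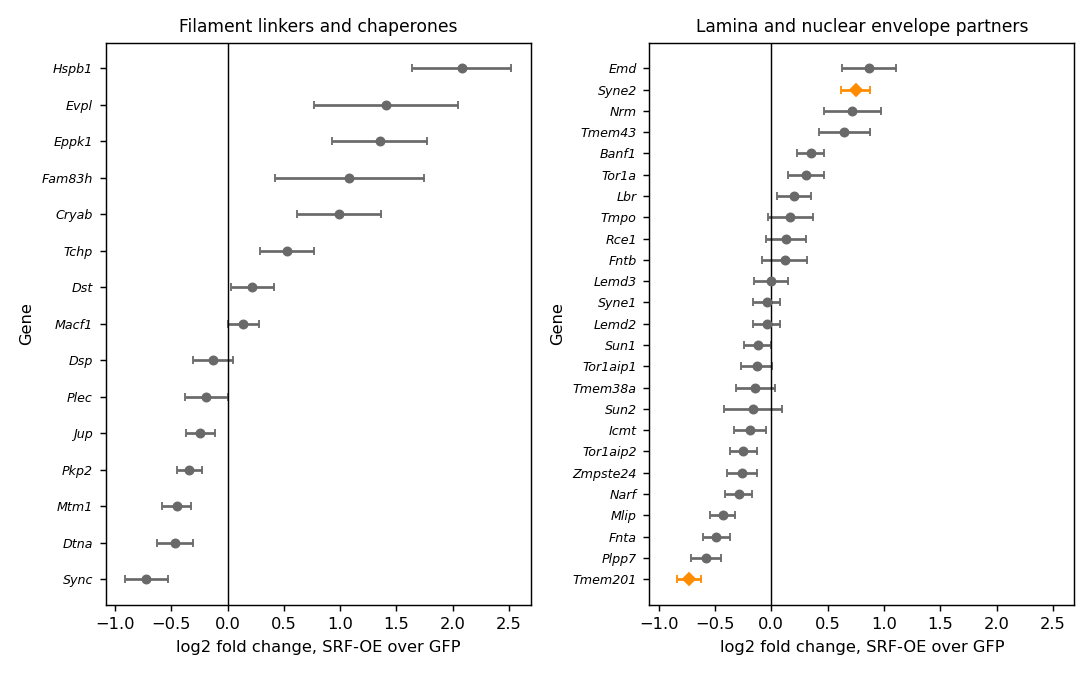
Log2 fold change of SRF-OE over GFP (x axis) with bars of 1 standard error in the 4 libraries, for the filament linkers and chaperones (left) and the lamina and nuclear envelope partners (right), with genes on the y axis and orange diamonds for edgeR adjusted p under 0.05. Values lie on both sides of 0 in both lists, and the only diamonds are Syne2 at 0.75 and Tmem201 at -0.73.

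The genes whose pattern over the 5 libraries was most like that of Krt18 were sought among 8522 genes with a mean of at least 10 CPM, by the root mean square distance of centred log2(CPM + 1) values. The nearest were Sprr1a at 0.14, Sypl2 at 0.24, Synm at 0.27, Rtl1 at 0.35 and Procr at 0.46. Synm was thus among the nearest, whereas Krt8 stood at rank 15 with a distance of 0.89, Srf at rank 41 with 1.41, Vim at rank 142 and Des at rank 431. The values were centred but not scaled, so the distance also depends on the size of the differences. At low levels, as for Krt8 and Sprr1a in GFP2 and GFP3, it depends on the added 1 too. With only 5 libraries, which differ in depth and composition, this ordering is a description.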

How the data were processed

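RNA-seq counts of sorted GFP+ CMs were analysed. Per the labels and the submitters' processing notes, which name CASAVA 1.8, STAR 2.5.3a, featureCounts of Subread 1.5.2 and mm10, the authors aligned reads to the mouse genome and counted them per gene, and the deposited table holds raw, unscaled counts. Settings for strand and multiply mapped reads are not given in the sources used here, so overlapping and near-identical genes are uncertain. The deposited column headed OE1 held gene lengths and was used only as such. Tests were designed for 6 libraries and 5 could be used, assigned by column name, with 0 columns of values left unused. Depth is given as total counts per library.

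Counts were tested with edgeR 4.0.16 in R 4.3.3 (filterByExpr, TMM, glmQLFit and glmQLFTest, Benjamini-Hochberg adjustment over all genes tested, cutoff 0.05), with the standard error taken from the quasi-likelihood F. The fits were run on simulated counts with planted changes. The simulation held no library that goes against its label, so it does not bear on the effect of the library labelled GFP1. CPM used the TMM factors of the 5 libraries, and levels were compared between genes per kb of the deposited length. Alternatives were DESeq2 1.42.0, edgeR with upper quartile scaling or with the size factors of DESeq2, a model blocked on replicate number, a minimum of 10 counts per library or no filter, and leaving out each library. Leaving out a library from the 4 was added after seeing the data.

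The members and lists were chosen with earlier results of these data known. The genes named were the 10 members, every other filament gene past the filter, and, in the linker and lamina lists, genes past the cutoff or the 3 with the smallest p in 4 libraries, with other names marked as chosen after their values were seen. Older symbols in the table were matched through RefSeq, and Muc16 and Syne3 were not analysed here. Positions and windows are from GRCm38 annotation and RefSeq GRCm38.p6.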

Additional observations from a re-analysis of the deposited data

How the results depend on the processing

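The limit that bears on most values is the library labelled GFP1, whose removal moved the log2 fold changes of Krt8, Krt18 and Synm by more than any scaling or filter, and the small number of libraries. Fits that leave 1 library in a group assume that it varies like the others. The replicate numbers are shared by the groups, but the labels do not say that a number marks a litter or day, and same-numbered libraries had correlated deviations of 0.41 for number 2 and -0.086 for number 3 in the 5 libraries and 0.224 in the 4, so pairing was not shown.

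With the replicate block in the 5 libraries, where the library labelled GFP1 has no partner and the values rest on the other four, 582 genes rose and 432 fell, 4 members rose, and the type I, type II and type III and IV lists held 1, 1 and 2 calls, the linkers 1 and the lamina partners 2, with Srf at 2.78 and Lmnb1 at -0.05. In the 4 libraries the block gave 547 genes higher and 392 lower, 1 type II keratin and 1 linker. DESeq2 gave 11 genes higher and 213 lower and 1 lamina partner in the 5 libraries, over 1167 genes with an adjusted p, and 853 and 832 genes, 5 members, 2 type II keratins and 2 linkers in the 4. The cause was not tested.

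Other settings changed calls or signs in the 4 libraries only. At least 10 counts in every library gave 55 genes higher and 9 lower, 0 type I keratins, 0 lamina partners and Srf at 2.89, no longer past the cutoff. No filter gave 1660 and 1303 genes, 6 members, and 2, 4, 4, 1, 5 and 6 calls among type I, type II, type III and IV, lens, linker and lamina lists. Upper quartile scaling gave 88 and 9 genes, 0 type I keratins, 0 lamina partners and Lmnb1 at 0.02. DESeq2's size factors gave 206 genes lower and 1 type II keratin. Krt18 lost its call with upper quartile scaling (edgeR adjusted p = 0.0524) and with at least 10 counts (0.056). Allowing 1 mismatch raised the members with a CArG box from 0 to 3.

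Leaving out 1 library at a time from the 5 gave 0 to 265 genes higher, 0 to 130 lower, 0 to 3 members, 0 to 1 type I, 0 to 2 type III and IV and 0 to 2 lamina calls, with the highest of each without the library labelled GFP1. Srf ranged from 1.13 to 2.87, Krt19 from -0.22 to 2.73, Des from -0.35 to 0.70, Lmna from -0.21 to 0.36 and Lmnb1 from -0.26 to 0.30. From the 4, the ranges were 0 to 1640 genes higher, 0 to 1638 lower, 0 to 5 members, 0 to 2 type I, 0 to 3 type II, 0 to 3 type III and IV, 0 to 1 lens, 0 to 3 linker and 0 to 7 lamina calls. Srf ranged from 2.24 to 3.30, Krt19 from -0.52 to 3.73, Des from -0.05 to 1.00, Lmna from -0.15 to 0.42 and Lmnb1 from -0.36 to 0.20. There were 2 genes past the cutoff without GFP2 and 0 without GFP3, with 0 of the members in either, and Krt18, Synm and Vim kept log2 fold changes of 6.18 and 6.09, 5.41 and 5.62, and 1.45 and 1.58. The members called lower and the lamins held 0 calls under every alternative run.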
